A study of Mus musculus with 7 samples.

Results

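Acinar cells of the wild-type (WT) pancreas were taken as the cells that the authors' deposited annotation calls acinar in the WT count table. They numbered 1770 of the 10653 WT cells, with 853 of 4327 cells in the mouse WT 1 and 917 of 6326 cells in the mouse WT 2, and they formed a single annotated cluster. The whole series held 58473 cells from the pancreas of 7 C57BL/6 mice aged 2 months, and each mouse gave 1 library. The WT mice (n = 2) received doxycycline in the drinking water at 1 mg/ml for 7 days, as did the i4F mice (genotype i4F-B, n = 3), which carry a doxycycline-inducible transgene for the reprogramming factors Oct4, Sox2, Klf4 and Myc. By the study's methods that transgene is not limited to the pancreas, it sits in the Pparg gene, and the i4F line is kept on C57BL/6J.Ola.Hsd, a substrain that the labels do not name. The caerulein mice (n = 2) were wild type and received caerulein, an analogue of the secretagogue cholecystokinin, at 100 µg/kg in 7 injections a day on 2 days. Their labels name caerulein and no doxycycline, so that in the comparison of caerulein with WT the agents cannot be told apart. Pancreata were digested with collagenase, dispase and trypsin, and single-cell RNA was read as unique molecular identifiers (UMIs) with 10x Genomics 3′ chemistry. Of the droplet barcodes, 9 occurred in both WT libraries, 1 of them in acinar cells of both.

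Acinar cells make the digestive enzymes of the pancreas. They synthesise proteases, lipases, amylases and nucleases on a dense rough endoplasmic reticulum (ER), store most of the proteases as inactive zymogens in granules at the apical membrane, and release them into the ducts on stimulation by cholecystokinin or acetylcholine. Their identity is set by transcription factors such as PTF1A, RBPJL, NR5A2 and MIST1 (encoded by Bhlha15), and it is known to be lost in part on injury and in pancreatitis, when duct-type keratins and secreted proteins of the regenerating islet-derived (Reg) family are made instead.

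The label was checked against 5 markers. Gp2 encodes the main membrane glycoprotein of the zymogen granule, Pnliprp2 a lipase, Pla2g1b the secreted pancreatic phospholipase A2, Amy2a5 a pancreatic amylase and Spink1 a trypsin inhibitor. In the GENCODE M21 annotation of GRCm38 they lie at chr7:119442537-119459285 (Gp2), chr19:58759719-58777534 (Pnliprp2), chr5:115466262-115474722 (Pla2g1b), chr3:113247178-113258837 (Amy2a5) and chr18:43728082-43737557 (Spink1). In CPM, the UMIs of a gene summed over cells and scaled to a common total, Gp2 stood at 15048 in the acinar cells of WT 1 and 15557 in those of WT 2, against 152 and 112 in all other cells of the same mice. Pnliprp2 reached 21149 and 21984 CPM in acinar cells against 239 and 191 in the others. Pla2g1b reached 21719 and 34829 CPM against 328 and 428, so that the acinar and the other cells lay far apart for all 3 genes in both mice. Amy2a5 gave 2196 and 5421 CPM in acinar cells, with 45.4 and 69.6 in the others. Spink1 gave 7110 and 10699 CPM, with 114 and 157 in the others. Together the 5 markers took 6.72% of the acinar UMIs of WT 1 and 8.85% of those of WT 2, and the acinar name held in both mice. CPM here are relative to the genes listed in the table, in which 7 of 12 genes listed as acinar markers had a row, while Cpa1, Cpb1, Cela1, Ctrb1 and Prss2 were not analysed here.

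UMIs of genes high in acinar cells were found in every other cluster. The 210 genes at least 4-fold higher in acinar cells than in all other WT cells of both mice, defined below, took 36.3% of the acinar UMIs in WT 1 and 32.0% in WT 2, and 1.58% and 2.00% of the UMIs of all other cells. Among the other annotated clusters their share ran from 1.31% (Macrophages 1) to 5.32% (Endothelial 2) in WT 1 and from 1.73% (Quiescent Pancreatic Stellate 2) to 5.98% (Endothelial 2) in WT 2. These 210 genes include features also found widely in other cells, so this share is not acinar RNA alone. In the other cells of WT 1 and WT 2, Gm42418 stood at 4140 and 6701 CPM, Rpl32 at 1948 and 2674 and Nupr1 at 823 and 811. The 5 markers took 0.0689% and 0.0707% of the UMIs of ductal cells and 0.752% and 0.572% of those of Endothelial 2. A UMI of Pla2g1b was present in 98.6% of acinar cells of WT 1 (exact 95% binomial interval 97.6 to 99.3) and 98.9% of those of WT 2 (98.0 to 99.5), but also in 61.7% and 64.0% of B lymphocytes, which do not make the enzyme and had a median of 2886 and 2066 UMIs per cell against 431 and 502 in acinar cells. After thinning each cell to 1000 UMIs, which left out 701 and 708 of the acinar cells as too shallow, the shares for Pla2g1b were 96.7% in acinar cells of both mice and 28.3% and 39.05% in B lymphocytes. The levels given for acinar genes in other cells include such UMIs, and how much of them is free RNA was not tested.

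**Figure D1:**
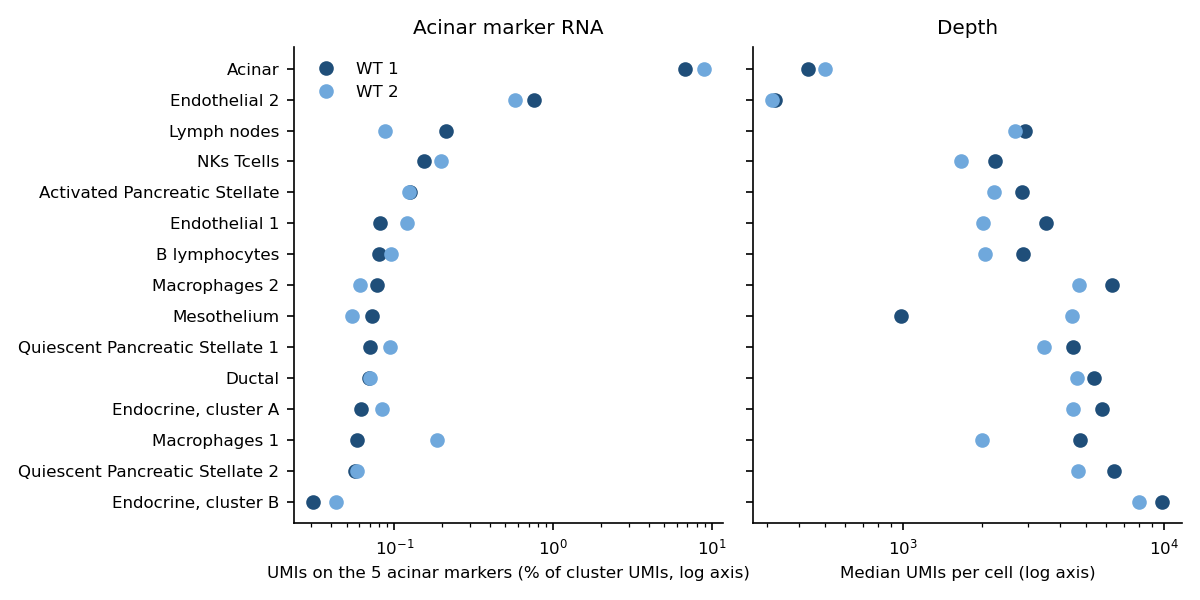
UMIs on the 5 acinar markers as a percent of all UMIs of a cluster (left, log axis) and median UMIs per cell (right, log axis) for the 15 annotated WT clusters, with 1 dot per mouse. The acinar cluster sits at 6.72% and 8.85% in the left panel, and only Endothelial 2 lies below it in depth.

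Acinar cells were shallow. Their median was 431 UMIs and 250 genes per cell in WT 1 and 502 UMIs and 255 genes in WT 2, and of the other WT clusters only Endothelial 2, at 323.5 and 315 UMIs, was lower in both mice. At least 500 genes were counted in 14.8% of acinar cells of WT 1 and 17.1% of those of WT 2, and these cells held 56.8% and 52.1% of the acinar UMIs. The median share of a cell's UMIs on the 5 markers was 7.17%, 7.80% and 7.40% in WT 1 cells with under 250, 250 to under 500 and 500 or more genes, and 8.15%, 8.88% and 8.90% in WT 2, so that within a mouse the medians of the 3 classes differed by less than 1 percentage point. In all, 767407 acinar UMIs of WT 1 and 817448 of WT 2 stand behind the levels given here. By comparison, acinar cells of the i4F mice had medians of 1933, 2020 and 606 UMIs and those of the caerulein mice 2213.5 and 1322.5.

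Acinar cells made up 19.7% of the cells of WT 1 (exact 95% interval 18.5 to 20.9) and 14.5% of those of WT 2 (13.6 to 15.4). The share was 6.05%, 9.82% and 28.0% in i4F 1, 2 and 3, and 10.2% and 15.5% in caerulein 1 and 2, so that the i4F mice spanned the range of all others. The intervals cover counting error only. Digestion and loading also set such shares, and fewer acinar cells in the organ and poorer recovery of them cannot be told apart.

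Against all other WT cells, 210 of 6236 genes were at least 4-fold higher in acinar cells of both mice (3.37% of genes with at least 20 CPM in the higher class), and 1801 were at least 4-fold lower (28.9%), on the scale log2(CPM + 1). The clusters were drawn from the same counts, so these are descriptions without a test. The median log2 ratio over all 6236 genes was −1.39.

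Genes are ranked here among those with at least 100 CPM in acinar cells of both mice. After Reg2 (mean log2 ratio 7.69) and Reg3b (7.36), which are taken up below, the highest ratio belonged to Dmbt1, a scavenger-receptor glycoprotein (6.93 ± 0.08, SD, n = 2 mice), Gp2 (6.87 ± 0.34) and Pdia2, the protein disulphide isomerase of the pancreas (6.69 ± 0.31). Dmbt1 stood at 6800 and 4472 CPM in acinar cells of WT 1 and WT 2 and at 52.4 and 37.2 CPM in the other cells. Pdia2 stood at 10446 and 15094.5 CPM in acinar cells and at 117 and 125 CPM in the others. Pnliprp2 followed at 6.65 ± 0.27, the zinc transporter gene Slc39a5 at 6.62 ± 0.20 and Cuzd1, a zymogen-granule membrane protein, at 6.51 ± 0.28. The kallikrein gene Klk1b5, the γ-glutamyl transferase Ggt1, the aquaporin Aqp12, the calcium-binding Cabp2, the GTPase regulator Arhgdig, the trypsinogen-like Gm5409, the amylase Amy2b and chymotrypsin C (Ctrc) had ratios from 6.05 to 6.44. The GENCODE M21 annotation classes Gm5409 and Amy2b as unprocessed pseudogenes. The SD between the mice was at most 0.34 for all 20 leading genes other than Reg2, Reg3b and Reg3g. As the mean over cells of each cell's own CPM, the order changed, with Dmbt1 at 5.90 and Gp2 at 5.41 above Reg2 at 4.34 and Reg3b at 4.21, and Pla2g1b fell from 6.19 to 4.58.

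**Figure D2:**
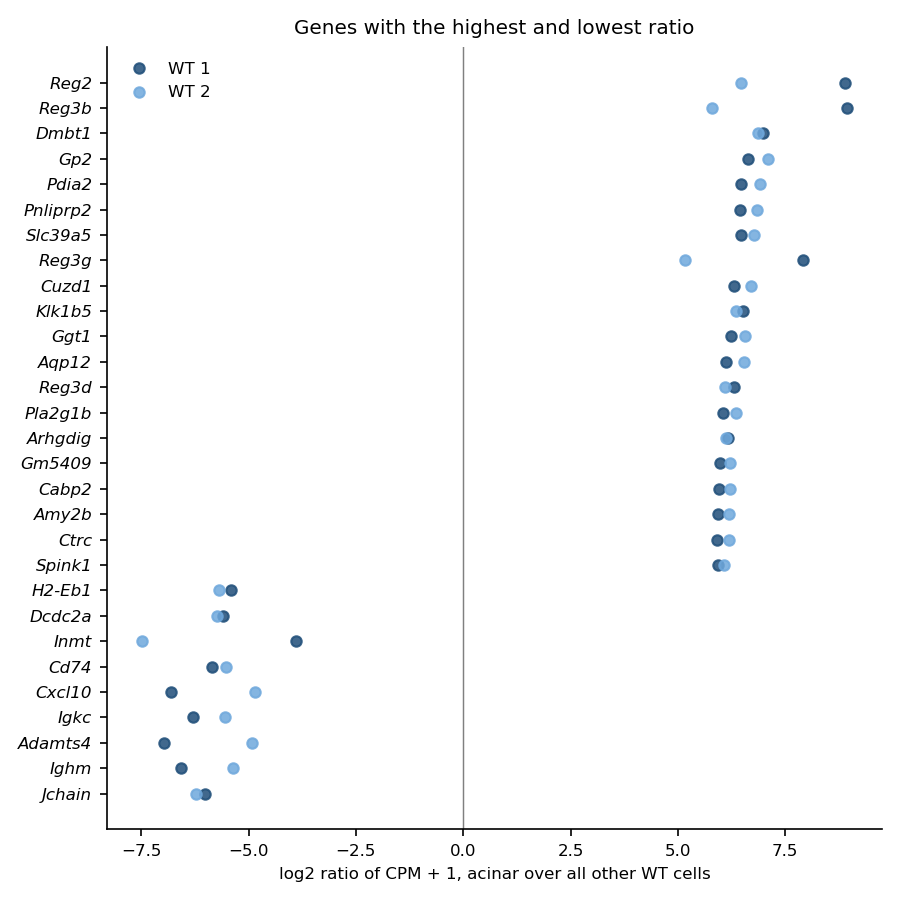
log2 ratio of CPM + 1 in acinar cells over all other WT cells for the 20 highest genes and genes among the 10 lowest (vertical axis), with 1 dot per WT mouse. The dots of a gene lie close together for most of the 20 leading genes and far apart for Reg2, Reg3b and Reg3g, while Inmt, Adamts4 and Cxcl10 spread among the lowest.

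Where these genes start is given here because the letters before a gene are where acinar factors are known to act. The windows run from 250 bases before to 50 after the start in the RefSeq annotation of GRCm38.p6, which held a promoter for 20 of the 29 genes named as markers, leading or most abundant. Capitals mark 3 motifs on either strand, the E-box CANNTG and the core TGGGAA, letters bound by the bHLH and RBPJL parts of the PTF1 complex, and the TATA box TATAAA, where overlapping matches run together. Gp2 lies on the minus strand at chr7:119459223-119459522, Pnliprp2 on the plus strand at chr19:58759473-58759772, Pdia2 on the minus strand at chr17:26199038-26199337 and Reg3b on the plus strand at chr6:78370635-78370934.
Gp2: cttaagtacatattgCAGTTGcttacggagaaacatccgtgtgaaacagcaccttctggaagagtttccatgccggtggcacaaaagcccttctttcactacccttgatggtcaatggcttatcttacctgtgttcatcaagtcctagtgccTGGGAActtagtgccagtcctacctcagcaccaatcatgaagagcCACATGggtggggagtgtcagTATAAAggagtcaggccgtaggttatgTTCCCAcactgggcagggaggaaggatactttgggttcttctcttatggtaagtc
Pnliprp2: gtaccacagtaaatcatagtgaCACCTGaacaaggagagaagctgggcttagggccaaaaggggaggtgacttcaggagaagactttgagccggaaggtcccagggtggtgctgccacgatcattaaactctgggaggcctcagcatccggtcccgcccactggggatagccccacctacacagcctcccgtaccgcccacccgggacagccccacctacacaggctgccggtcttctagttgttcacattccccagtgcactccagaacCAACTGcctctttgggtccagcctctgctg
Pdia2: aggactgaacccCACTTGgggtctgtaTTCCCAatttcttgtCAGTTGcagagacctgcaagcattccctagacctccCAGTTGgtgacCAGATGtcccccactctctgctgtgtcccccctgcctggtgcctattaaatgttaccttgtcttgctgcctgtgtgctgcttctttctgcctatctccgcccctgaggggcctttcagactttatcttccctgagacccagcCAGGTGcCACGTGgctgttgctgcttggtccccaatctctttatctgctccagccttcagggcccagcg
Reg3b: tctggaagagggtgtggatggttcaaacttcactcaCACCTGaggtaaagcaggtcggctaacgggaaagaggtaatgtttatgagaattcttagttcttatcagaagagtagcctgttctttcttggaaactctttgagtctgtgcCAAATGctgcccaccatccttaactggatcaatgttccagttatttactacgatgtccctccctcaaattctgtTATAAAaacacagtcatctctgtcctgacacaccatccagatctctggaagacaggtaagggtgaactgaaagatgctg

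The Gp2 window held 2 E-boxes, 2 TGGGAA cores and a TATAAA that began 32 bases before the start. The Pdia2 window held 6 E-boxes and 1 TGGGAA, the Pnliprp2 window 2 E-boxes, and the Reg3b window 2 E-boxes and a TATAAA that began 29 bases before the start. The window of the marker Pla2g1b, which is not printed, held 0 E-boxes, 0 TGGGAA and 0 TATAAA. That window, chr5:115465892-115466191 on the plus strand, ends before the GENCODE M21 start of the gene at 115466262. The RefSeq and GENCODE starts thus differ, and the bases before the GENCODE start were not searched in full. An E-box occurred in 72.3% of all 32851 promoters of this length outside chromosome 18 and in 74.0% of the 204 promoters of the 210 acinar genes (156 genes had one). The E-box CACCTG occurred in 20.2% of all promoters and 37.7% of the acinar ones, TGGGAA in 25.6% and 35.3%, TATAAA in 13.6% and 15.7%, AAGGTCA, the letters bound by NR5A2, in 4.72% and 3.43%, and TGTTTAC, the FOXA core, in 3.65% and 3.43%. Several promoters belong to 1 gene, CACCTG is also counted among the E-boxes, and a match is no measurement of binding.

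By role, the listed genes of enzymes and of the Reg family stood above the other cells throughout, but not all were abundant. In WT 2, Gm2663 stood at 20.8 CPM, 1810009J06Rik at 35.5 and Reg3a at 52.6. A UMI of them was seen in 8, 4 and 12 acinar cells of that mouse. All 11 listed proteases and zymogens with a row, all 5 listed lipid and starch hydrolases and all 5 Reg genes were at least 4-fold higher in both mice, beside 3.37% of all genes. Try10, a trypsinogen, gave 4295 and 3851 CPM in acinar cells of WT 1 and WT 2, Ctrc 2230 and 2783, Prss3 1529 and 1374, and Klk1b5 996 and 954. Amy2b gave 5902 and 3660 CPM and Amy1, the salivary-type amylase, 1608 and 1134. The trypsinogen genes are near-identical copies, so the split of reads among Try10, Prss1, Prss3 and the Gm-numbered genes is uncertain. Of 27 listed proteases and 15 listed hydrolases, 11 and 5 had a row.

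Of 22 listed genes for the granule, the apical membrane and inhibitors, 12 were at least 4-fold higher and 1 was lower, beside 3.37% and 28.9% of all genes. Beyond Gp2 and Spink1, Cuzd1 reached 5861 and 6480 CPM, Serpini2, a serpin of the exocrine pancreas, 3404 and 3973, the ER chaperone Erp27 2834 and 2956, and the cargo receptor Tmed6 2439 and 2587. Aqp12 gave 1903 and 2187 CPM. The others, largely the general machinery of granule fusion, stayed within 4-fold.

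Transcription factors were found at low levels. Rbpjl, the acinar partner of PTF1A, gave 397 and 373 CPM in acinar cells against 6.35 and 4.54 in the other cells, and Bhlha15 gave 184 and 96.6 CPM. Ptf1a itself gave 27.4 and 62.4 CPM, and a UMI of it was seen in 2.46% of WT 1 (exact 95% interval 1.53 to 3.74) and 4.91% (3.602 to 6.51) of WT 2 acinar cells. The deeper Endothelial 1 cells, with medians of 3528 and 2016 UMIs, held a UMI of Ptf1a in 0.231% of WT 1 cells (0.00586 to 1.28) and 0 of 851 WT 2 cells. By the limit of 3 counts that a count of 0 allows, which here and below concerns cells with a UMI and not cells that express the gene, that share is up to 0.353%. Foxa3 and Nr0b2 were also at least 4-fold higher, whereas Nr5a2, known as an acinar factor, gave 18.2 and 25.7 CPM in acinar and 48.3 and 23.0 CPM in other cells. Of 13 factors with enough counts, 6 were at least 4-fold higher and 2, Rbpj and Prox1, at least 4-fold lower, beside 3.37% and 28.9% of all genes.

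Secretion on demand needs a receptor and calcium release. Cckar, the cholecystokinin receptor through which caerulein acts, gave 431 and 311 CPM in acinar cells against 7.97 and 3.58 in others and was seen in 26.4% and 20.5% of acinar cells, while 0 of 47 and 0 of 111 B lymphocytes held a UMI (up to 6.38% and 2.70% of cells by the limit of 3 counts). It was the 1 gene of 10 measured in its list that stood at least 4-fold higher, beside 3.37% of all genes. Gnaq, Itpr1 and Atp2b1, which encode a G protein subunit, a calcium release channel and a calcium pump, were at least 4-fold lower, a share of 3 in 10 near the 28.9% of all genes.

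The ER of acinar cells differed by gene. Of 51 measured genes for folding and export, 9 were at least 4-fold higher and 0 lower, beside 3.37% and 28.9% of all genes, with a median log2 ratio of 0.86 against −1.39 over all genes. P4hb, the main disulphide isomerase, gave 1711 and 1819 CPM in acinar and 248 and 229 in other cells. Sec11c, a signal peptidase subunit, gave 1360 and 1544 CPM against 221 and 180. The chaperone Hspa5 (BiP) gave 2807 and 1333 CPM in acinar cells against 2553 and 2242 in the others, a little above them in WT 1 and below them in WT 2.

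Many genes of amino acid supply and of the stress response that controls it were high. Nupr1, a stress-induced chromatin protein, was among the most abundant transcripts at 18780 and 16133 CPM in acinar cells, against 823 and 811 in the others, and had a UMI in 94.5% and 95.5% of acinar cells, beside 82.3% and 72.1% of ductal cells and 40.4% and 36.0% of B lymphocytes. Acinar cells held a median of 431 and 502 UMIs, ductal cells 5396 and 4624 and B lymphocytes 2886 and 2066. Among cells thinned to 1000 UMIs, which left 152 and 209 acinar cells, the Nupr1 shares were 98.0% and 94.3% in acinar cells, 41.6% and 36.5% in ductal cells and 15.2% and 19.0% in B lymphocytes. Serine synthesis (Phgdh, 854 and 811 CPM) and asparagine synthesis (Asns, 641 and 591 CPM) were at least 4-fold above the other cells, as was the hormone Fgf21 (452 and 235 CPM, against 11.2 and 3.79). Creatine synthesis was represented by Gamt at 1036 and 1483 CPM and Gatm at 860 and 700 CPM, and the glycine methyltransferase Gnmt gave 424 and 421 CPM. In all, 7 of 21 measured stress genes and 10 of 18 amino acid and creatine genes were at least 4-fold higher, beside 3.37% of all genes, and 1 (Ppp1r15a) and 2 (Slc43a3 and Slc6a6) were at least 4-fold lower, beside 28.9%.

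Gm42418, a locus that overlaps ribosomal RNA sequence, was the most abundant feature over both mice, with 44368 and 72156 CPM. Ribosomal protein genes (among them Rpl32, Rpl13 and Rplp1), the translation factor Eef1a1 and Tpt1 filled most of the rest of the 15 most abundant, and the median share of UMIs on ribosomal genes in the deposited metadata was 19.1% and 21.4% per acinar cell. Ductal cells of the same mice had 9.20% and 10.3%, B lymphocytes 22.1% and 22.7% and the T and NK cells 18.2% and 21.5%, so that acinar cells did not stand apart from lymphocytes.

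Lower in acinar cells than elsewhere were genes of other cells and of activation. The 10 lowest ratios included the immunoglobulin genes Jchain, Ighm and Igkc, the antigen presentation genes Cd74 and H2-Eb1 and the chemokine Cxcl10. Jchain stood at 1.30 and 2.45 CPM in acinar and 148 and 255 CPM in other cells. Against ductal cells only, Jchain, Ighm and Igkc had mean log2 ratios of 0.67, 2.44 and 2.497. A single UMI is 1.30 CPM in acinar cells of WT 1 and 1.22 CPM in those of WT 2, so the Jchain ratio rests on very few UMIs. Ighm stood at 3.91 and 29.4 CPM in acinar cells and Igkc at 23.5 and 86.9, and 1 CPM was added to each level. Of 34 measured immediate early genes, 25 were at least 4-fold lower in acinar cells of both mice and 0 higher, beside 28.9% of all genes. Fos, lower but not by 4-fold in both mice, gave 1341 and 1483 CPM in acinar against 5788 and 5263 CPM in other cells, and Egr1, one of the 25, gave 434 and 385 against 3080 and 2352. Of 29 measured injury and inflammation genes 25 were at least 4-fold lower. Heat-shock chaperones were at least 4-fold lower for 9 of 19, and Hsp90ab1, not one of them, stood at 1454 and 1518 CPM against 4076 and 3943. Dissociation is known to induce many of these genes, and its part was not tested.

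Of 29 measured ductal and progenitor genes, 15 were at least 4-fold lower and 2 (Muc1 and Agr2) higher, beside 28.9% and 3.37% of all genes. Krt19, a ductal keratin, gave 61.2 and 68.5 CPM in acinar and 458 and 217 CPM in all other cells, and Spp1 gave 165 and 116 against 8601 and 4288. Cftr had no UMI in acinar cells of either mouse. Clu, a secreted chaperone often used as a ductal marker, was an exception at 6063 and 4893 CPM in acinar against 4058 and 2461 CPM in other cells. Mki67, a marker of dividing cells, had a UMI in 0 of 853 acinar cells of WT 1, and in 2 of 917 of WT 2. At a median of 431 UMIs a cell, the 0 cells allow a share of cells with a UMI of up to 0.352% (3 counts of the total) and set no limit on cells that divide.

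Markers of most other cell types were low inside the acinar cluster. Ductal markers were the exception, with sums of 6326 and 5105 CPM in acinar cells, mostly Clu, against 36042 and 33203 in ductal cells and 13759 and 7352 in all other cells. Summed over each list, stellate markers gave 834 and 491 CPM in acinar cells of WT 1 and WT 2 against 38168 and 34560 in Quiescent Pancreatic Stellate 1. Endothelial markers gave 124 and 133 CPM against 15712 and 15445 in Endothelial 1. Of 9 lymphocyte markers, 7 had no UMI in acinar cells of WT 1 and 2 of them, Cd79b and Ms4a1, had none in WT 2, with sums of 2.61 and 23.2 CPM, and macrophage markers summed to 50.8 and 154 CPM. Endocrine markers summed to 607 and 963 CPM, with Iapp at 512 and 515. Of 8 endocrine markers with a row, Pcsk1n was at 0 in WT 1. All 5 red cell markers were at 0, after lysis of red cells in the protocol. The part of these cells and of free RNA in the acinar levels was not tested.

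A few cells of the cluster had almost no acinar marker RNA. Of the 1770 cells, 5 lacked any UMI of the 5 markers (1 in WT 1 and 4 in WT 2), and the median share on these markers was 7.42% and 8.65%. Glial genes (17 genes of Schwann-type cells of nerves, among them Kcna1, Scn7a and Sox10, a list chosen after their values were seen) gave at least 10 UMIs in 4 cells of WT 1 and 16 cells of WT 2. These 20 cells held 23 to 126 glial UMIs in WT 1 and 10 to 44 in WT 2, and 88.1% and 94.2% of all glial UMIs of the cluster. Their share on the 5 acinar markers was between 0.0501% and 0.353% in WT 1 and between 0 and 0.746% in WT 2, below the medians of 7.45% and 8.73% in the rest. Kcna1, a potassium channel of myelinated nerve, had all of its 22 and 60 acinar UMIs in these cells. The list that picked the cells holds Kcna1 and the other glial genes, so these shares follow in part from the choice. Such cells were 0.469% and 1.74% of the annotated acinar cells. Of the other WT clusters, Quiescent Pancreatic Stellate 1 held 13 cells with as many glial UMIs, Quiescent Pancreatic Stellate 2 held 2 and Ductal 1.

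**Figure D3:**
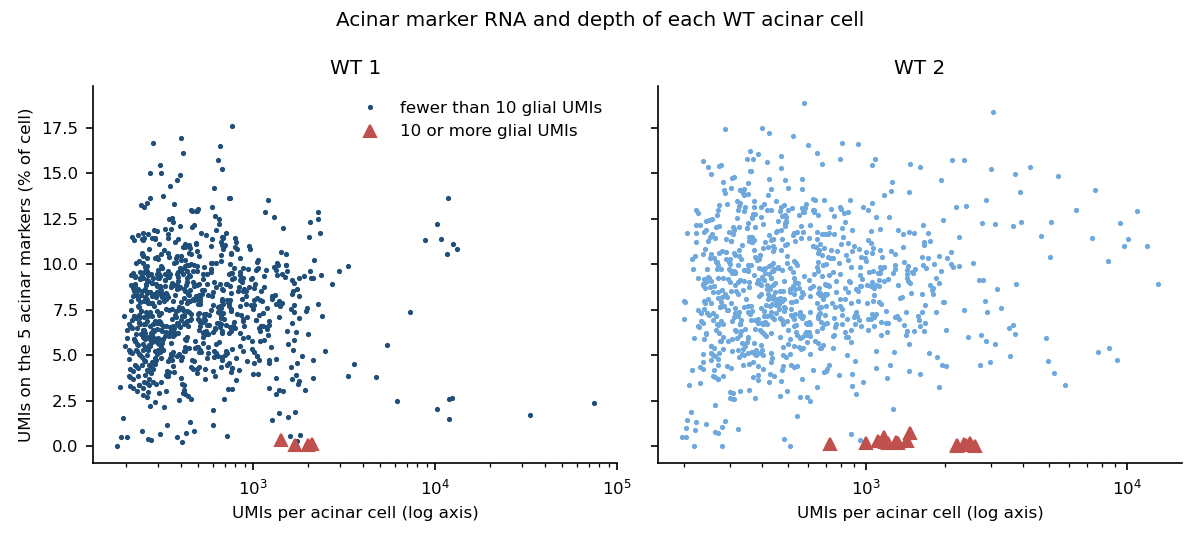
UMIs of each acinar cell (horizontal, log axis) against the percent of its UMIs on the 5 acinar markers (vertical) in WT 1 and WT 2, with 1 point per cell. Triangles are the 4 and 16 cells with at least 10 glial UMIs, all under 0.746% on the markers, and the largest cell of WT 1 lies at 74247 UMIs.

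Genes of the Reg family led those higher in WT 1 than in WT 2. Reg proteins are secreted lectins of which Reg3b and Reg3g bind bacteria, and acinar cells are known to make them in inflammation. Reg3b stood at 56587 CPM in acinar cells of WT 1 and 458 in those of WT 2, a ratio of 124 (exact 95% interval of the counts 112 to 137). Reg2 stood at 41400 and 1414 CPM, a ratio of 29.3 (27.6 to 31.1). Reg3a stood at 5827 and 52.6 CPM and Reg3g at 2495 and 100.3 CPM. Reg3d, at 1860 and 909 CPM, was 2.05 times as high in WT 1 (1.87 to 2.24), and the 5 Reg genes all lay at least 2-fold above WT 2, beside 3.06% of the 1960 genes compared. Each mouse is a single sample of its kind, the intervals cover counting error only, and no test between the mice was possible.

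Those levels rested on few cells. A single cell of WT 1 with 74247 UMIs, 9.68% of all acinar UMIs of the mouse, carried 61.0% of its Reg3b UMIs, 61.4% of its Reg2 and 67.7% of its Reg3a. The 3 cells with the most UMIs of each gene carried 88.4% for Reg3b, 85.1% for Reg2 and 92.5% for Reg3a, and without them Reg3b stood at 7801 CPM, Reg2 at 7316 and Reg3a at 518. In WT 2 the first cell held 37.4% of Reg3b and 51.7% of Reg2 UMIs, and without the first 3 cells these genes stood at 212 and 533 CPM. Reg3d was spread out, with 13.0% and 2.56% of its UMIs in the first cell. The largest WT 1 cell had 67.4% of its UMIs on the 5 Reg genes and 2.36% on the 5 acinar markers. The second largest, with 33141 UMIs, had 47.2% and 1.69%.

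The bulk of the cells differed as well. A UMI of Reg3b was seen in 64.4% of WT 1 acinar cells (exact 95% interval 61.0 to 67.6) and 11.2% of WT 2 (9.26 to 13.5), and in 73.7% and 14.8% of the cells thinned to 1000 UMIs. B lymphocytes of the same mice gave 34.0% and 1.80%, or 15.2% and 0.952% thinned. The 5 Reg genes took a median of 0.655% of the UMIs of an acinar cell in WT 1 and 0.0934% in WT 2, with none in 12.2% and 44.4% of cells. More than 40% of the UMIs were on Reg genes in 10 cells of WT 1 and 0 of WT 2. The library names also separate the WT mice (AL for WT 1 and all i4F mice, AM for WT 2 and both caerulein mice), so that mouse and library series cannot be told apart.

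**Figure D4:**
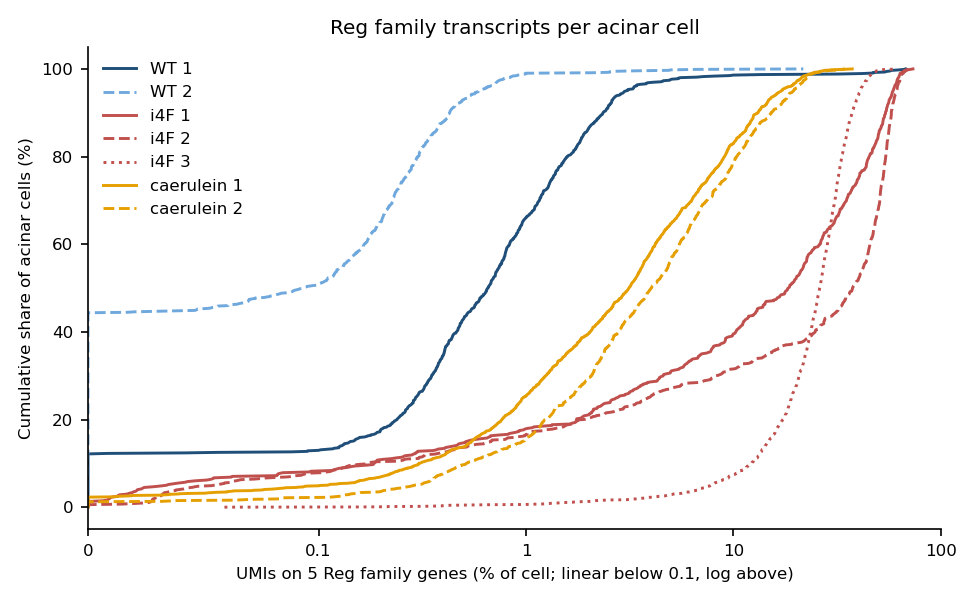
Cumulative share of acinar cells (vertical, percent) against the percent of a cell's UMIs on 5 Reg genes (horizontal, linear below 0.1 and log above), with 1 line per mouse. The medians are 0.655% and 0.0934% in WT 1 and WT 2, 18.4%, 37.5% and 26.0% in the i4F mice and 3.14% and 4.02% in the caerulein mice.

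In the 5 i4F and caerulein mice no acinar cell held more than a small part of the Reg3b RNA. Reg3b stood at 70514, 92496 and 92862 CPM in acinar cells of i4F 1, 2 and 3 and at 23454 and 31158 CPM in caerulein 1 and 2. The first cell held 1.35% to 4.05% of the Reg3b UMIs in the i4F mice and 0.696% and 1.02% in the caerulein mice. WT 1, by its sum, reached the range between caerulein and i4F, whereas by its median cell it lay below all 5 i4F and caerulein mice.

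In all, 138 of 1960 genes were at least 2-fold higher in WT 2 (7.04%) and 60, the 5 Reg genes among them, in WT 1 (3.06%). Of the 138, 89 were also at least 2-fold higher in the other cells of WT 2. Of the 60, 7 were also at least 2-fold higher in the other cells of WT 1, and Reg2, Reg3a, Reg3b and Reg3g were among these. The share of all 1960 genes that lay 2-fold apart in the other cells is not given here, so nothing is read from these overlaps. Lcn2, an iron-binding protein of inflamed epithelium, stood at 357 and 4.89 CPM in WT 1 and WT 2, with 97.1% of the WT 1 UMIs in 1 cell, and Lrg1 stood at 620 and 26.9 CPM, with 55.7% in 1 cell. Among genes higher in WT 1, over 50% of the UMIs came from 1 cell for 10 of 60 genes, and among those higher in WT 2 for 5 of 138 (Prss1, Ppy, Pyy, Sst and Apod). Of these, Ppy, Pyy and Sst are islet hormones.

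Scand1, H2afj, Malsu1, Hspb1, Nenf and Mrps24 were among the 10 leading genes higher in WT 2. H2afj, a histone variant, stood at 584 CPM in WT 2 and 6.52 in WT 1, and in the other cells at 191 and 4.73 CPM. Scand1 had 147 UMIs in acinar cells of WT 2 and 0 in WT 1, and 129 and 0.498 CPM in the other cells. Across all mice, the other cells of WT 1 were at least 4-fold below every other mouse for 23 genes, H2afj, Malsu1 and Mrps24 among them.

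The marker genes held closer. Gp2 was 1.03 times as high in WT 2 as in WT 1 (1.01 to 1.06) and Pnliprp2 1.04 times (1.02 to 1.06). Pla2g1b was 1.60 times (1.57 to 1.63), Spink1 1.505 times (1.455 to 1.557) and Amy2a5 2.47 times as high (2.33 to 2.61), so that of the 5 only Amy2a5 passed 2-fold. Hspa5 was 2.11 times and the ER stress factor Manf 2.43 times as high in WT 1.

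The remaining comparison set the acinar cells of the i4F mice and of the caerulein mice against those of the WT mice. UMIs of the acinar cells were summed per mouse and tested with the quasi-likelihood test of edgeR over 11095 genes. P-values measure the spread between these mice. Both comparisons share the WT mice. For i4F, 9 genes passed at an adjusted p of 0.05 or less, 4 higher (0.0361% of genes tested) and 5 lower (0.0451%), and 2791 had an unadjusted p under 0.05. For caerulein, 0 genes were higher by edgeR (0%) and 4 were lower (0.0361%), while 2454 had an unadjusted p under 0.05 in either direction. DESeq2 on the same sums called 498 higher and 378 lower for i4F (4.49% and 3.41% of 11095 genes) and 314 and 586 for caerulein (2.83% and 5.28%). Without the TMM scaling, edgeR called 0 higher and 3 lower for i4F and 0 and 2 for caerulein.

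In i4F acinar cells, Sfn, the epithelial 14-3-3σ, stood at 36.5 and 17.1 CPM in WT 1 and WT 2 and at 1455, 1587 and 386 CPM in i4F 1, 2 and 3 (log2 fold change 5.14, SE 0.63, edgeR adjusted p = 0.0408). Nccrp1, a glycan-binding protein of squamous epithelium, stood at 1.30 and 3.67 CPM in WT and 986, 644 and 136 CPM in i4F (7.55, SE 0.93). Every i4F mouse lay above both WT mice for these genes. The long non-coding RNA Zfas1 rose by 3.95 (SE 0.46) from 13.0 and 15.9 CPM in WT to 267, 417 and 118 CPM in i4F, and Gsta4, a glutathione transferase, by 5.08 (SE 0.58) from 1.30 and 4.89 CPM to 178, 118 and 75.9 CPM. Apip, an enzyme of methionine salvage, fell by 2.67 on the log2 scale (SE 0.30), from 89.9 and 79.5 CPM in WT to between 12.8 and 18.6 CPM in i4F, all at the same adjusted p of 0.0408. In caerulein 1 and 2, Sfn stood at 209 and 234 CPM, Nccrp1 at 7.13 and 6.61 and Zfas1 at 265 and 276. Gsta4 stood there at 15.3 and 26.8 CPM and Apip at 49.7 and 55.3. The adjusted p of each of these 5 genes reached 0.276 under the least favourable alternative. For i4F, edgeR called 0 genes with only the groups compared in the fit, with the library name series as a term, or without WT 1, i4F 1, i4F 2 or caerulein 1, with 1740 to 2219 genes at an unadjusted p under 0.05. Aqp8, a water channel of the acinar apical membrane, stood at 44.3 and 41.6 CPM in WT, at 1.72, 2.69 and 3.81 in i4F and at 0.849 and 0.413 in caerulein, and fell in both comparisons (adjusted p = 0.0408 and 0.0394). Aqp8 lies at 34 UMIs in each WT mouse. In WT 1 and WT 2, Nccrp1 had 1 and 3 UMIs, Gsta4 1 and 4 and Zfas1 10 and 13, so the sizes of their fold changes are uncertain.

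The remaining genes called lower were mostly glial. Kcna1 and Scn7a passed for i4F and Kcna1 for caerulein, and in the WT mice most of their UMIs lay in the 20 cells with glial genes described above (for Scn7a 12 of 20 in WT 1 and 79 of 81 in WT 2). Both genes are on the list that picked those cells. These genes and Aqp8 lay under the expression level set for naming genes and were named after their values were seen. Without acinar cells of any mouse with at least 10 glial UMIs, 0 genes passed in either comparison by edgeR. The smallest adjusted p was 0.0542 for i4F and 0.0626 for caerulein (2848 and 2538 genes at an unadjusted p under 0.05). This cut also left 804 of 807 acinar cells in i4F 2, with 4341333 of 4470144 UMIs. WT 1 kept 760198 of 767407 UMIs and WT 2 791188 of 817448, and the part of the WT cells alone was not tested. The log2 fold changes for i4F were then 5.06 for Sfn, 7.44 for Nccrp1, 3.83 for Zfas1 and 4.97 for Gsta4. Ggh, a lysosomal γ-glutamyl hydrolase, stood at 1396 and 1222 CPM in WT and 179 and 138 CPM in caerulein (log2 fold change −3.62, SE 0.39, adjusted p = 0.0394, and −3.71 with adjusted p = 0.0626 without the glial cells). Over all alternatives the adjusted p of Ggh ran from 6.45e-24 to 0.371.

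By edgeR the 5 markers did not pass in either comparison, although no caerulein mouse reached a WT mouse. DESeq2 called Gp2 and Pnliprp2 lower for caerulein (adjusted p = 8.83e-06 and 0.00114) and none of the 5 for i4F, and gave no adjusted p for Pla2g1b and Amy2a5. Gp2 stood at 899 and 696 CPM in caerulein 1 and 2 (log2 fold change −4.84, SE 1.13, adjusted p = 0.079) and at 1301, 3048 and 8854 CPM in i4F 1, 2 and 3 (−1.70, SE 0.86, adjusted p = 0.253). Pla2g1b stood at 1074 and 470 CPM in caerulein (−5.76, SE 1.83, adjusted p = 0.126) and 346, 1480 and 13150 CPM in i4F (−2.29, SE 1.36, adjusted p = 0.313). Of the i4F mice, i4F 3 had the highest level of all 5 markers, and its Amy2a5, at 2343 CPM, and Spink1, at 7377, were above WT 1 at 2196 and 7110. Of its acinar cells, 2071 belonged to the cluster Acinar_1, which held 11 and 61 in i4F 1 and 2. Without i4F 3, all 7 listed acinar markers passed as lower for i4F and 6 of 7 for caerulein, among 3608 and 2187 genes called by edgeR, of which 1897 and 945 were higher (17.1% and 8.54% of 11069 genes) and 1711 and 1242 were lower (15.5% and 11.2%). Krt19 stood at 2128, 2116 and 518 CPM in i4F and 921 and 1135 CPM in caerulein against 61.3 and 68.5 in WT, at an adjusted p of 0.0501 and 0.0585 by edgeR and of 3.40e-13 and 1.17e-06 by DESeq2.

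**Figure D5:**
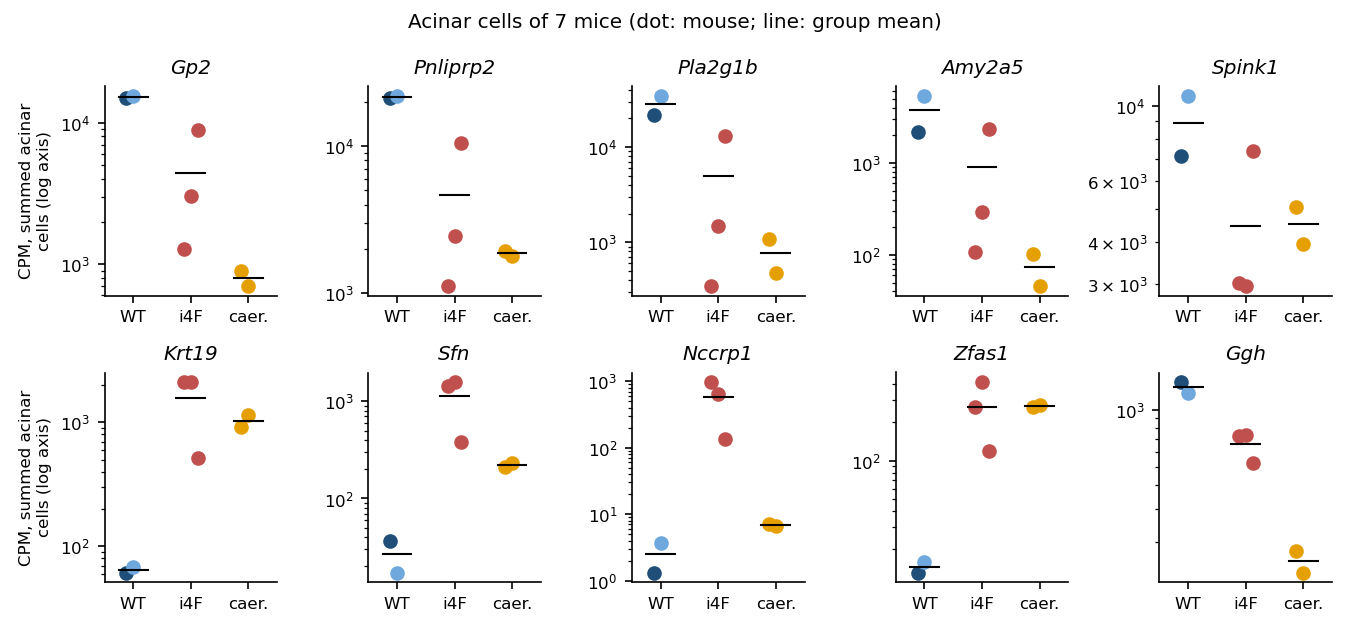
CPM of summed acinar cells (vertical, log axes that differ by panel) for the 5 markers, Krt19, Sfn, Nccrp1, Zfas1 and Ggh, with 1 dot per mouse and a line at the group mean. The mouse i4F 3 is the highest of the i4F mice for each of the 5 markers, and both caerulein mice lie below both WT mice for them.

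Each list is given by its median beside a median log2 fold change over all genes of 0.14 for i4F and 0.10 for caerulein. Medians were −1.86 and −4.12 for the 7 acinar markers, −2.22 and −1.47 for the 11 proteases, −1.22 and −1.82 for the 55 ER genes and −1.31 and −2.002 for the 23 amino acid and creatine genes, with no gene of these lists past the test of edgeR. Injury and inflammation genes had medians of 1.49 and 1.34 and cell cycle genes 2.29 and 1.99, again with none past that test. Without i4F 3 the i4F medians were −3.98 for the acinar markers, −3.58 for the proteases, −1.88 for the ER genes, −2.18 for the amino acid and creatine genes, 1.49 for the injury genes and 2.70 for the cell cycle genes. EdgeR then called 43 of the 55 ER genes lower and 1 higher in each comparison. Of 34 cell cycle genes it called 27 higher and 1 lower for i4F and 15 higher for caerulein. In that fit 17.1% and 8.54% of all genes were called higher for i4F and caerulein, and 15.5% and 11.2% lower. DESeq2 called 18 of the 55 ER genes lower for i4F and 35 for caerulein, and 4 and 9 of the 23 amino acid and creatine genes lower, with Slc7a1 higher for i4F. Of the 11 proteases it called 3 lower for i4F and 4 lower for caerulein, with 1810009J06Rik and Gm2663 higher for caerulein. It called 12 of 31 injury and inflammation genes and 4 of 33 cell cycle genes higher in each comparison. The DESeq2 counts stand beside 4.49% and 2.83% of all genes called higher by DESeq2 and 3.41% and 5.28% called lower. Macrophage and dendritic markers had medians of 2.98 and 4.39 and endocrine markers of −3.56 and −6.29 among the acinar cells, and the part of free RNA from other cells in these values was not tested. The 10 tested genes of the mitochondrial genome had medians of 0.08 for i4F and −1.68 for caerulein. None of them passed by edgeR, while for caerulein DESeq2 called 5 lower, and edgeR without i4F 3 called 8 lower, beside 5.28% and 11.2% of all genes. What part RNA quality had in the caerulein values was not tested. Gm2663, of the trypsinogen family and named after its values were seen, stood at 156 and 20.8 CPM in WT and 15022 and 9898 CPM in caerulein, with an adjusted p of 0.0919 in edgeR, and DESeq2 called it higher. Reg2 and Reg3b had log2 fold changes of 1.96 and 1.502 for i4F and −1.86 and −0.65 for caerulein, none past the test, and those for caerulein turned to 2.07 and 5.33 without WT 1. Of the other Reg genes, DESeq2 called Reg3a and Reg3d lower for caerulein, and edgeR without i4F 3 called Reg3d lower in both comparisons. In the fit with all mice Reg3d had log2 fold changes of 0.017 for i4F and −4.45 for caerulein (edgeR adjusted p = 0.993 and 0.0624).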

How the data were processed

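Single cells of 7 mouse pancreata were sequenced on the 10x 3′ v3 platform. Per the labels and the study's methods, the authors used Cell Ranger with the mm10 build (GRCm38), kept cells with at least 150 genes and under 5% mitochondrial reads, and annotated the clusters. The deposited tables hold whole-number UMI counts per gene and cell, and the deposited metadata give percent values of mitochondrial and ribosomal reads. The study's methods name SoupX for ambient RNA, and whether the deposited counts are from before or after that step is not given in the sources used here. Genes without a row were not analysed here, so CPM are relative to the listed genes.

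Counts of acinar cells, and of all other WT cells, were summed per mouse. Acinar cells were compared with the other cells as log2(CPM + 1), with no test, over genes with at least 20 CPM in the higher class of both mice. The WT mice were compared over genes with at least 50 CPM in acinar cells of either mouse. Sums of the i4F, caerulein and WT groups were tested over the 25469 genes in all 3 tables, after edgeR's filter on low counts, with edgeR 4.0.16 (TMM, quasi-likelihood test, all 7 mice in 1 fit, Benjamini-Hochberg adjusted p at most 0.05), in R 4.3.3. DESeq2 1.42.0 was the alternative tool. CPM in that comparison are relative to those genes. Other steps used Python 3.11.15, pandas 2.3.3, scipy 1.17.1 and scanpy 1.11.5, and the scripts were tested on simulated data. Each mouse is 1 library, with 767407 to 5893070 acinar UMIs. Scrublet, as run in scanpy, marked 0.0462% of WT 1 cells, 2.61% of WT 2 cells and 0% of i4F 3 cells, which is too few to have worked in WT 1 and i4F 3, so doublets were kept.

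Genes were named by rule: the 5 markers, the 20 highest ratios at 100 CPM or more in acinar cells, the 10 lowest at 100 CPM or more in other cells, the 15 most abundant, the 10 largest differences a direction between the WT mice, genes called between conditions, and up to 4 abundant members of each list. Members, lists and rules were chosen with earlier results of these data known. Samples that share a replicate number did not deviate together (correlations from −0.205 to 0.0108), so the numbers were not taken as pairs. Alternatives covered scaling, filters, depth, doublets, the samples in the fit and each mouse left out. Some genes that the rules select are not reported here.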

Additional observations from a re-analysis of the deposited data

How the results depend on the processing

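The count of genes at least 4-fold higher in acinar cells was within 1.5 times of 210 under every alternative run, while the count lower moved from 1801 to 814 with 10 CPM added and to 3278 with no minimum CPM. Restricted to cells with at least 500 genes, the mean acinar share fell from 17.1% to 3.83% and 357 rather than 198 genes differed 2-fold between the WT mice. Against ductal cells only, Jchain, Ighm and Igkc turned to log2 ratios of 0.67, 2.44 and 2.497, with Jchain at only 1.30 and 2.45 CPM in acinar cells of WT 1 and WT 2.

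Counts of genes called for i4F and caerulein moved from 9 and 4 to 876 and 900 with DESeq2, 3 and 2 without TMM (which moved the median of all genes from 0.14 to 0.32 and from 0.10 to 0.69), 2011 and 1574 without a filter, 0 and 2029 with only the 2 groups compared, 0 and 0 with the library name series as a term, 59 and 30 in cells with at least 500 genes, and 1 and 0 without doublets. Chosen after seeing the data, the i4F cells of Acinar_2 alone gave 2941 and 1652. Leaving out the acinar cells of any mouse with many glial UMIs, also chosen so, gave 0 and 0. Leaving out 1 mouse gave 0 to 3608 and 0 to 2187, the highest without i4F 3. Without i4F 1, caerulein gave 302. A replicate block gave 3263 and 1872, although the numbers were not taken as pairs. The crossed pairing of WT and caerulein, also chosen after seeing the data, gave 2690. It was fitted to these 2 groups alone, which gave 2029 without a pairing. The causes were not tested.

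For caerulein, Reg2 turned to 2.03 with the series term and, with 1 mouse left out, ran from −2.77 (WT 2 out) to 2.07 (WT 1 out). Its value was −0.61 without the cell that held over 5% of the acinar UMIs of its mouse and −0.47 with the crossed block. Reg3b turned to 0.13 with the replicate block, 1.75 with the crossed block, 5.28 with the series term and 0.65 without the cell that held over 5% of the acinar UMIs of its mouse, and ran from −1.59 (WT 2 out) to 5.33 (WT 1 out). The comparison of acinar subclusters in WT mice was not run, as they form 1 cluster. WT and caerulein have 2 mice each, and 431 to 502 UMIs in the median WT acinar cell limit what single cells show.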
